A study of Mus musculus with 12 samples.

Results

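The Wnt pathway was followed through 54 of its genes in mouse gastruloids, out of 38911 genes listed in the deposited count tables. The genes were taken from the tables by their symbols. They comprise 12 Wnt ligands, 12 Frizzled and Lrp receptors, 12 secreted or membrane antagonists, 7 genes of the R-spondin module, 2 genes of ligand acylation and secretion, 4 cytoplasmic regulators and 5 nuclear effectors. All 54 had a count in at least 1 library, and 52 passed the filter on low counts and were tested.

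Gastruloids are aggregates of embryonic stem (ES) cells that form mesodermal and neural cells and lay down a body axis. They were made here from 200 cells of E14TG2a, a single mouse ES cell line cultured in 2i and LIF, and all 4 groups had been given CHIR99021 on day 2, a Wnt agonist that stabilises β-catenin inside the cell without a ligand. Between day 3 and day 4 the gastruloids received 1× glucose (21.25 mM, the control), 0× glucose, 3× glucose (63.75 mM), or 5 mM 2-DG (2-deoxy-D-glucose, a glucose analog) in 1× glucose, and polyA RNA was sequenced on day 4. Each group holds 3 libraries, 1 from each of ES cell passages 13, 15 and 16, and each library is a pool of gastruloids of 1 treatment, taken from 1 plate. The control libraries set beside 2-DG are those labelled 1× glucose, although 2-DG was diluted from a stock in buffer. The study asked whether the effects of 2-DG follow from blocked glucose use, and the 0× glucose group addresses that question.

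Wnt proteins are secreted ligands that carry a fatty acid attached by Porcn and leave the cell with the carrier Wls. In the canonical branch they bind a Frizzled receptor together with Lrp5 or Lrp6, which halts the breakdown of β-catenin by a complex built on Axin, so that β-catenin acts in the nucleus with factors of the Tcf and Lef family. Some of the genes activated in this way, *Axin2*, *Nkd1*, *Notum* and *Lef1* among them, encode feedback inhibitors or effectors and serve as readouts of the pathway, and in the gastrulating embryo *Wnt3*, *Wnt3a* and *Wnt8a* act in the primitive streak and its descendants.

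Library totals ranged from 31902471 to 45956080 counts. Levels are given in CPM (read counts scaled to library size with TMM factors), and in CPM per kb of exon where genes are compared with each other. A gene is said to have been called, to have risen or to have fallen where the adjusted p of edgeR's quasi-likelihood test was under 0.05. The labels name the cell type as embryonic stem cell, but the 9 naive pluripotency markers summed to 13.5 to 18.1 CPM in the 1× glucose libraries, against 436 to 564 CPM for 10 primitive streak and early mesoderm markers and 946 to 2050 CPM for 10 presomitic and paraxial mesoderm markers. The 8 general pluripotency markers summed to 752 to 1060 CPM in these libraries, of which *Lin28a* made up the most, at a mean of 643 CPM. In 2-DG the streak markers summed to 242 to 342 CPM, with 4 of 10 lower and none higher. The presomitic and paraxial markers summed to 892 to 1930 CPM in 2-DG, overlapping the controls, with 2 of 10 lower and none higher. The naive pluripotency markers summed to 20.2 to 24.7 CPM in 2-DG, above the controls, with 1 higher and none lower. The general pluripotency markers summed to 687 to 783 CPM, with no call. The 11 neural markers summed to 200 to 400 CPM in 2-DG and to 129 to 255 CPM in 1× glucose, with 4 higher and 1 lower. The 8 definitive endoderm markers summed to 32.5 to 83.3 CPM in 2-DG and to 31.4 to 200 CPM in 1× glucose. Their median log2 fold change was −0.98, with 1 higher and 1 lower. The 9 fibroblast markers summed to 74.8 to 140 CPM and to 92.1 to 180 CPM, with 1 lower and none higher. Over all genes 9.12% were called higher in 2-DG and 8.51% lower. All 12 endoplasmic reticulum chaperone and unfolded protein response genes rose, with sums of 4650 to 5570 CPM in 2-DG and 2330 to 2540 CPM in 1× glucose. The part of these shifts in the Wnt values below was not tested, and in pooled gastruloids fewer cells of a type and less RNA per cell cannot be told apart. Libraries of the same passage deviated together from their group means, so that a fit with the passage as a block is given wherever it changes a call.

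In 2-DG, genes of the Wnt pathway moved in both directions. *Wnt3a*, *Wnt5b*, *Sfrp1*, *Frzb*, *Nkd2* and *Tcf7* fell against 1× glucose, and *Wnt3*, *Fzd5* and *Lgr4* rose. These 6 lower calls are 11.5% of the 52 genes tested, against 8.51% of all 16966 genes, and the 3 higher calls are 5.77%, against 9.12% of all genes. With the passage block 11 were lower (21.2%, against 20.2% of all genes) and 12 higher (23.1%, against 21.1%). The 9 genes called without the block were also called with it, 14 were called only with it, and 29 in neither fit. Counted on the most abundant transcript of each gene alone, *Wnt3a*, *Sfrp1* and *Lgr4* kept their calls, and *Wnt5b*, *Frzb*, *Nkd2*, *Tcf7*, *Wnt3* and *Fzd5* did not. *Frzb* has 1 listed transcript, and 99.04% of the *Wnt3* counts lie in 1. The own counts of these genes were thus the same or nearly so, and their lost calls do not show a dependence on the transcript. The lower calls of that setting also included a gene not called lower above. The share of calls was thus near that of other genes, and the median log2 fold change was −0.01, against 0.00 over all genes. Of the 52 genes, 33 (63.5%) lay within 0.5 of 0 on the log2 scale, against 80.2% of all genes. All 3 2-DG libraries lay below all 3 control libraries for 10 genes (19.2%, against 17.2% of all genes) and above them for 8 (15.4%, against 18.3%).

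**Figure D1:**
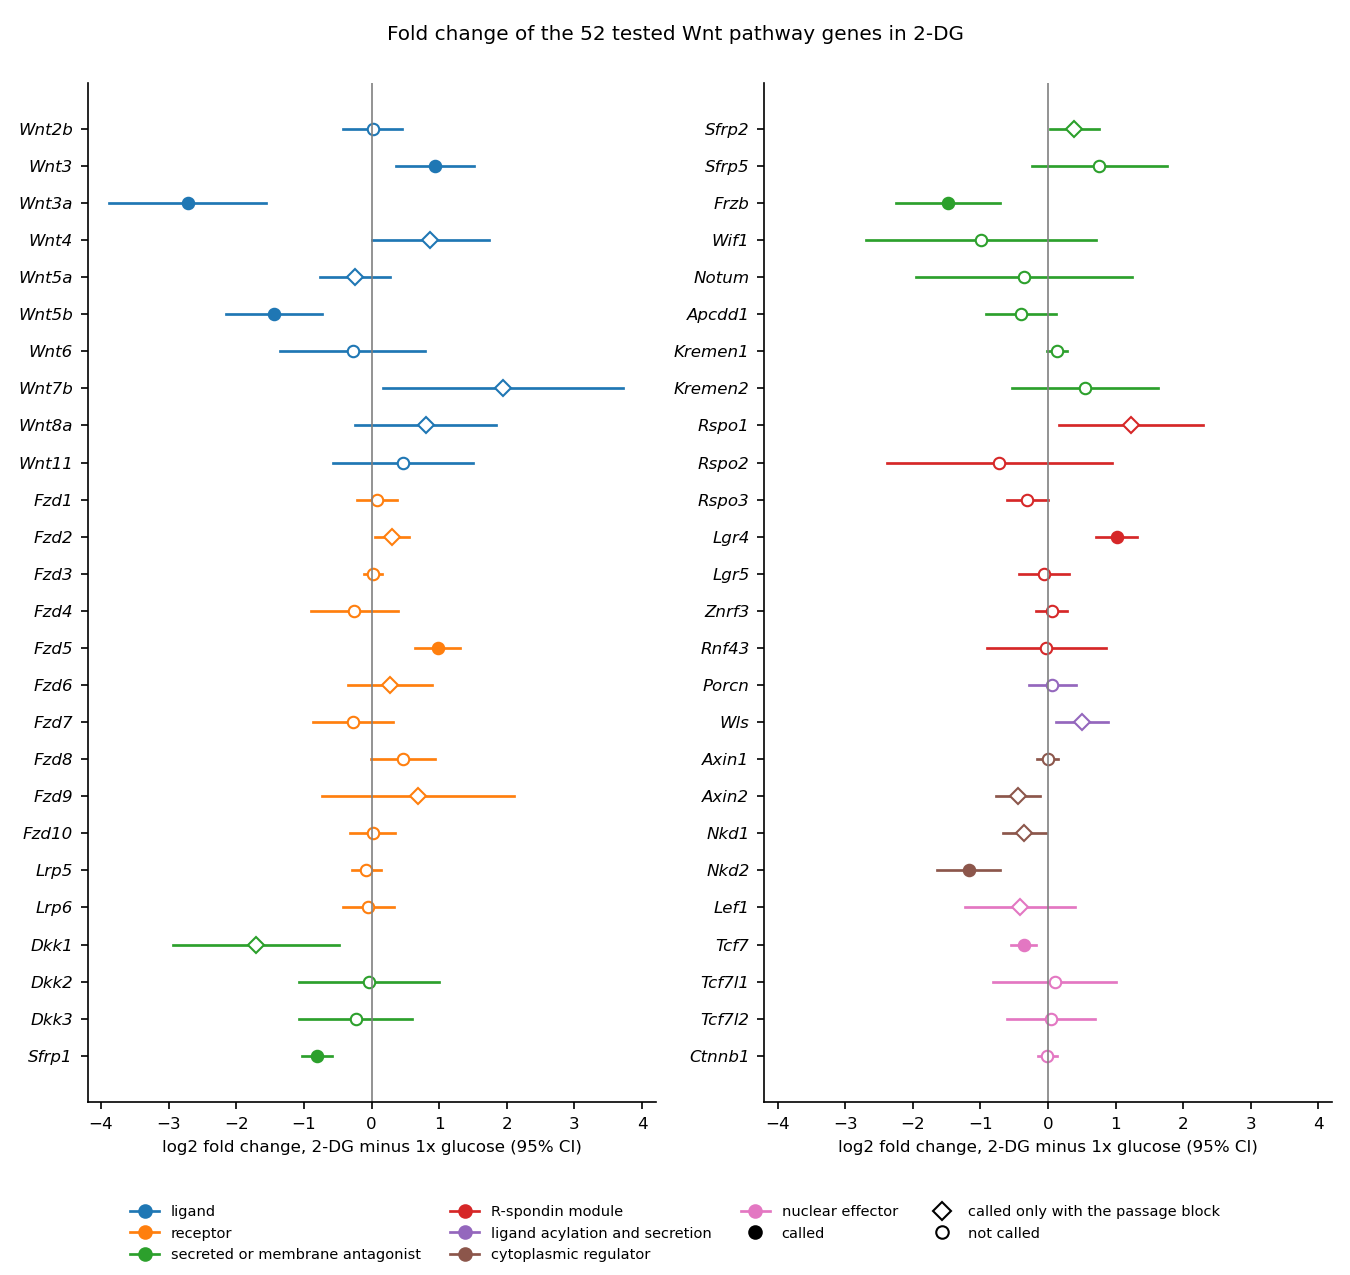
Log2 fold change of the 52 tested Wnt pathway genes in 2-DG against 1× glucose (x axis, points, with 95% confidence intervals as lines), coloured by role. Filled points were called, open diamonds were called only with the passage block and open circles were not called. *Wnt3a* lies farthest to the left at −2.72, and *Axin1* and *Ctnnb1* lie at 0.00 and −0.01.

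Among the ligands *Wnt3a*, which maintains progenitors of the tail bud, had the largest log2 fold change of any member, called or not. The gene lies at chr11:59248033-59290752 (GRCm38, the build the authors name mm10). It measured 90.8, 35.3 and 40.8 CPM in the 1× glucose libraries of passages 13, 15 and 16, and 6.97, 6.51 and 11.8 CPM in the 2-DG libraries. All 2-DG libraries lay below all controls, and the spread among the controls came from passage 13. The log2 fold change was −2.72 (edgeR, standard error, SE, of 0.52, adjusted p = 0.00634), and the call held in all 12 alternative settings. *Wnt5b*, a ligand known mostly for signals that do not need β-catenin, measured 102, 53.5 and 72.7 CPM in 1× glucose and 21.7, 24.3 and 37.8 CPM in 2-DG. It fell by 1.45 on the log2 scale (edgeR, SE 0.32, adjusted p = 0.0121), again with no overlap between the groups. Without the 2-DG library of passage 15 the change was −1.36 and was not called (adjusted p = 0.0544, edgeR). Its relative *Wnt5a* measured 92.5, 149.6 and 140.3 CPM in 1× glucose and 83.8, 129.9 and 109.6 CPM in 2-DG, with overlapping groups. It was lower in each passage and was called only with the passage block (log2 fold change −0.24, adjusted p = 0.000889, edgeR).

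Other ligands were higher in 2-DG. *Wnt3*, a ligand needed to form the primitive streak, stood at a low level of 1.10, 0.710 and 1.15 CPM in 1× glucose and at 2.43, 1.42 and 1.84 CPM in 2-DG. All 2-DG libraries lay above all controls. The log2 fold change was 0.94 (edgeR, SE 0.26, adjusted p = 0.0331), and the call held in 4 of 12 alternative settings. *Wnt8a*, a ligand of the posterior early embryo, measured 74.1, 27.1 and 36.5 CPM in 1× glucose and 118.8, 58.2 and 63.4 CPM in 2-DG. The groups overlapped because the control of passage 13 was high, but 2-DG was higher within each passage, by 0.68, 1.10 and 0.80 on the log2 scale. *Wnt8a* was not called without the block (log2 fold change 0.80, adjusted p = 0.28, edgeR), and with it the value was 0.85 (adjusted p = 3.07e-05, edgeR), called also in all 6 block fits that left out 1 library.

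The remaining ligands, apart from *Wnt6*, were scarce. *Wnt4*, known from kidney and gonad development, measured 2.09, 1.34 and 1.23 CPM in 1× glucose and 2.99, 2.64 and 2.90 CPM in 2-DG. *Wnt7b*, known from lung and placenta, measured 0.176, 0.526 and 0.259 CPM in 1× glucose and 1.41, 1.64 and 0.639 CPM in 2-DG. In both genes the groups did not overlap, and both were called only with the block, *Wnt4* at 0.91 (adjusted p = 0.0258, edgeR) and *Wnt7b* at 2.01 (adjusted p = 0.00946, edgeR). The call of *Wnt4* held in 1 of 6 block fits that left out 1 library, and that of *Wnt7b* in 5, the exception being the fit without the 1× glucose library of passage 15 (adjusted p = 0.0548, edgeR). *Wnt6* measured 13.9, 5.37 and 8.45 CPM in 1× glucose and 7.38, 6.29 and 9.24 CPM in 2-DG. Its within-passage log2 ratio was −0.91 in passage 13 and 0.23 and 0.13 in passages 15 and 16, so that its direction differed between passages. *Wnt2b* measured 0.966, 0.789 and 1.08 CPM in 1× glucose and 0.966, 0.790 and 1.12 CPM in 2-DG. *Wnt11*, a ligand of cell movement in gastrulation, measured 0.351, 0.658 and 0.735 CPM in 1× glucose and 1.05, 0.845 and 0.506 CPM in 2-DG. Neither *Wnt2b* nor *Wnt11* was called in either fit, and their groups overlapped. *Wnt1* and *Wnt10b* were under the filter, with at most 5 counts in any library.

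The mix of ligand transcripts differed in 2-DG. Per kb of exon, the 12 ligands added up to 133, 71.1 and 86.1 CPM per kb in 1× glucose and to 95.1, 66.2 and 74.9 CPM per kb in 2-DG. Ligands outside these 12 are not in the sum, such as *Wnt8b*, at means of 8.20 CPM in 1× glucose and 4.38 CPM in 2-DG. The sum was lower in 2-DG within each passage, though the groups overlapped. *Wnt8a* took 31.8%, 21.8% and 24.3% of that sum in 1× glucose and 71.5%, 50.3% and 48.5% in 2-DG. *Wnt3a* took 24.7%, 18% and 17.2% in 1× glucose and 2.65%, 3.56% and 5.72% in 2-DG. Per kb, *Wnt8a* was thus the most abundant of these ligands in all 3 2-DG libraries, whereas among the controls it led in passage 13 and *Wnt5b* led in passages 15 and 16. This ranking depends on the exon lengths used. In CPM, *Wnt5a* was the highest of the 12 in passages 15 and 16, at 149.6 and 140.3 in 1× glucose and 129.9 and 109.6 in 2-DG. *Wnt5b* went from 28.9%, 28.4% and 31.8% to 8.61%, 13.8% and 19.0%. The share of *Wnt5a* overlapped between the groups, at 8.87%, 26.9% and 20.8% in 1× glucose and 11.3%, 25.1% and 18.7% in 2-DG. Shares of 1 sum depend on each other, and with 3 libraries against 3 the smallest p of an exact two-sided permutation test is 0.1, so no test of the shares is given.

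**Figure D2:**
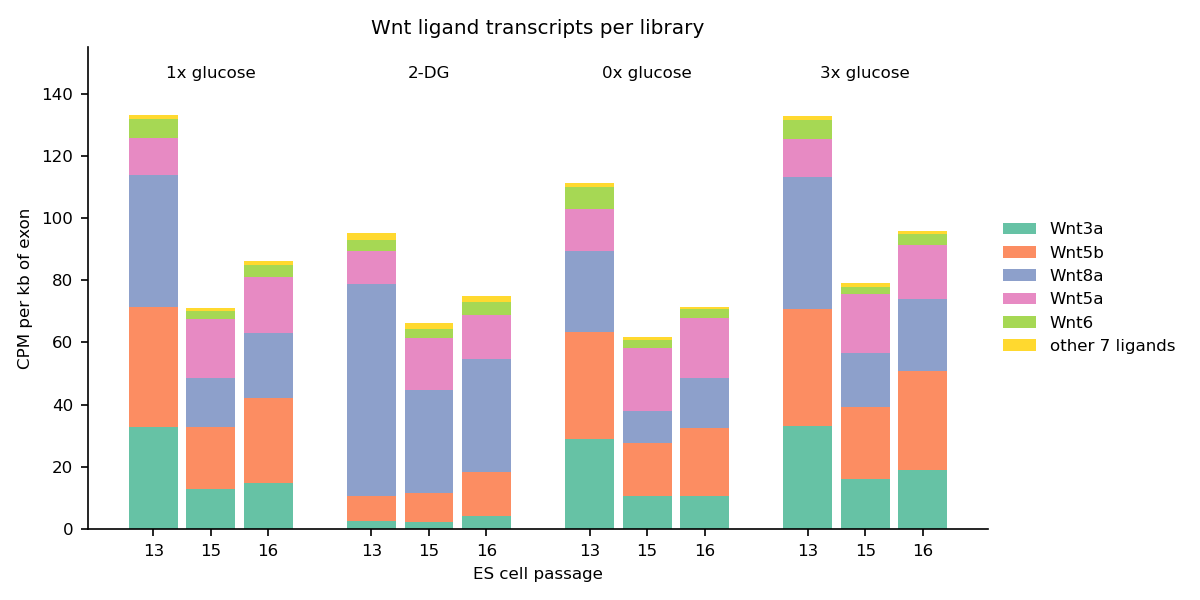
Wnt ligand transcripts in each library (y axis, CPM per kb of exon, stacked by ligand), grouped by treatment and ordered by ES cell passage (x axis). The *Wnt8a* segment makes up 48.5% to 71.5% of the bar in 2-DG and 21.8% to 31.8% in 1× glucose, and the *Wnt3a* segment 2.65% to 5.72% in 2-DG.

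Promoters were searched for CTTTGAT and its reverse complement ATCAAAG, a core bound by Tcf and Lef factors, from 250 bases before to 50 bases after the RefSeq starts (GRCm38.p6, both strands). The promoter table used here gave 44 such windows for 34 of the 54 genes, and 2 of the 44 (4.55%) held a match, against 3.73% of all 32851 windows. The genes as a group were thus near the rate of all promoters. Among the genes that fell in 2-DG, 1 of 8 windows held a match. It belongs to *Wnt5b*, at chr6:119449337-119449636 on the minus strand, and is shown because it was the only match in the windows of the 5 genes searched that fell. *Sfrp1* had no window here. Capitals mark the match, which lies 71 bases before the RefSeq start inside this window. The windows at the other *Wnt5b* starts held no match, and which start these cells used was not tested.

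Wnt5b: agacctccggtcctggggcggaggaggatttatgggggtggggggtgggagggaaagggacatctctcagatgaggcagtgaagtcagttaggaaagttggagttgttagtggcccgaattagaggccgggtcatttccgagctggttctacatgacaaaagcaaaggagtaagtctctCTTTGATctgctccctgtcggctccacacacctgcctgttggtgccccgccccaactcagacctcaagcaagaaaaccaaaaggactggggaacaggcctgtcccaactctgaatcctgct

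The match describes the letters of this window only. The other window with a match belongs to *Wnt11*, which was not called.

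Of the 12 receptors 1 was called without the passage block. Per kb of exon the most abundant in 1× glucose were *Fzd10* (71.8 ± 10.3 CPM per kb, SD, n = 3), *Fzd2* (46.7 ± 4.68) and *Fzd7* (26.7 ± 7.59), and *Fzd5* was the least abundant at 0.608 ± 0.0329 CPM per kb. The receptor called was *Fzd5*. It measured 4.46, 4.13 and 4.02 CPM in 1× glucose and 8.46, 8.42 and 7.94 CPM in 2-DG. The libraries of each group lay close together and the groups far apart, with a log2 fold change of 0.98 (edgeR, SE 0.15, adjusted p = 0.00216). With only its most abundant transcript the value was 0.81 and the call was lost (adjusted p = 0.425, edgeR), and the split of *Fzd5* counts between its transcripts varied from 0% to 63.7% for NM_001042659.1 among the 1× glucose libraries. The most abundant Frizzled, *Fzd10*, had mean levels of 233.4 CPM in 1× glucose and 236.1 CPM in 2-DG (log2 fold change 0.02). With the passage block, *Fzd2* (171.2 to 211.3 CPM, log2 fold change 0.31), *Fzd6* (17.5 to 21.2 CPM, 0.30) and *Fzd9* (3.51 to 5.67 CPM, 0.68) were also higher. *Fzd6* held its call in 1 of 6 block fits that left out 1 library, and *Fzd2* in 5, the exception being the fit without the 1× glucose library of passage 13. *Fzd1*, *Fzd3*, *Fzd4*, *Fzd7* and *Fzd8* and the coreceptors *Lrp5* and *Lrp6* were called in neither fit, with log2 fold changes from −0.27 for *Fzd7* to 0.47 for *Fzd8*. Of the genes that act on the ligands before release, *Wls* was at a mean of 199.3 CPM in 1× glucose and 283.2 CPM in 2-DG, with no overlap. It was called only with the block (0.51, adjusted p = 6.74e-06, edgeR), while *Porcn* was at 12.4 and 13 CPM and was not called.

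Antagonists that bind Wnt proteins in the extracellular space went different ways. *Frzb*, also known as Sfrp3, was the most abundant antagonist per kb in 1× glucose (26.6 ± 9.08 CPM per kb, SD, n = 3). It measured 52.3, 99.5 and 106.2 CPM in 1× glucose and 23.1, 32.5 and 37.0 CPM in 2-DG. All 2-DG libraries lay below all controls, and the log2 fold change was −1.48 (edgeR, SE 0.35, adjusted p = 0.0165). That call was lost on leaving out any 1 of 4 libraries (1× glucose passage 15 or 16, 2-DG passage 13 or 15), where the adjusted p ran from 0.051 to 0.0618, whereas with the passage block the value was −1.45 (adjusted p = 1.83e-06, edgeR). *Sfrp1*, a related secreted binder, measured 67.1, 78.7 and 86.1 CPM in 1× glucose and 43.7, 42.4 and 46.7 CPM in 2-DG. The groups lay apart, and it fell by 0.80 on the log2 scale (edgeR, SE 0.10, adjusted p = 0.000683), a call kept in all 12 alternative settings. *Sfrp2*, of the same family, was at a mean of 44.1 CPM in 1× glucose and 57.7 CPM in 2-DG and was called higher only with the block (0.39).

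Of the other antagonists, *Dkk1*, which blocks the Lrp coreceptors, had mean levels of 7.98 CPM in 1× glucose and 2.44 CPM in 2-DG with no overlap. It was called only with the block (−1.75, adjusted p = 0.00547, edgeR). *Notum*, an enzyme that removes the fatty acid from Wnt proteins, was at 38.1 CPM in 1× glucose and 29.9 CPM in 2-DG, and its within-passage log2 ratios of −0.86, 0.07 and 0.52 had no shared direction. *Apcdd1*, a membrane inhibitor, was at means of 33.9 CPM in 1× glucose and 25.7 CPM in 2-DG and was called in neither fit. All 2-DG libraries lay below all controls, but only just, at 29.42 CPM (2-DG, passage 15) and 29.56 CPM (1× glucose, passage 16). Its within-passage log2 ratios were −1.04, −0.05 and −0.11, so that most of the difference came from passage 13. *Dkk2*, *Dkk3*, *Sfrp5*, *Wif1* and *Kremen2*, each under 2 CPM on average in both groups, and *Kremen1*, a Dkk receptor at 31.5 and 34.5 CPM, were not called either.

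In the R-spondin module, which sets how many Frizzled receptors stay on the cell surface, *Lgr4* rose. *Lgr4* encodes a receptor of R-spondins and measured 25.6, 26.4 and 30.7 CPM in 1× glucose and 69.5, 53.2 and 44.8 CPM in 2-DG. Every 2-DG library lay above every control, at a log2 fold change of 1.02 (edgeR, SE 0.14, adjusted p = 0.00111), and the call was kept in all 12 alternative settings. *Rspo1*, a ligand of the Lgr receptors, was at a mean of 5.52 CPM in 1× glucose and 12.9 CPM in 2-DG. Its within-passage log2 ratios were nearly equal at 1.23, 1.23 and 1.24, and it was called only with the block (1.23, adjusted p = 3.74e-06, edgeR). The most abundant R-spondin, *Rspo3*, was at 190.7 and 154.1 CPM and was not called (adjusted p = 0.152 without and 0.0713 with the block, edgeR). *Rspo2*, *Lgr5* and the ubiquitin ligases *Znrf3* and *Rnf43*, which remove Frizzled from the surface and are known Wnt targets, were not called. *Rspo2* had a log2 fold change of −0.72 at under 1 CPM, and the other 3 lay between −0.06 and 0.05.

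Among the cytoplasmic regulators, *Nkd2* fell and the feedback genes *Axin2* and *Nkd1* were lower in all 3 passages. *Nkd2*, which encodes an inhibitor of Dishevelled, measured 29.1, 38.2 and 39.0 CPM in 1× glucose and 11.1, 16.1 and 19.8 CPM in 2-DG. It fell by 1.18 on the log2 scale (edgeR, SE 0.21, adjusted p = 0.0043) with no overlap. *Axin2*, the most used readout of canonical signalling, measured 160.1, 146.7 and 157.4 CPM in 1× glucose and 85.5, 116.8 and 138.5 CPM in 2-DG. All 2-DG libraries lay below all controls, but the size ran from −0.90 in passage 13 to −0.18 in passage 16 on the log2 scale. *Axin2* was not called without the block (−0.45, adjusted p = 0.063, edgeR) and was called with it (adjusted p = 0.0293, edgeR), and with DESeq2 (adjusted p = 0.0221). The block call held in 2 of 6 fits that left out 1 library. *Nkd1*, a relative of *Nkd2*, was at means of 101.5 and 79.4 CPM with no overlap, and was called only with the block (−0.34), in 2 of 6 such fits. *Axin1*, the constitutive scaffold, was at 96.6 and 96.4 CPM.

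Of the nuclear effectors, *Tcf7* fell by a small amount. It measured 103.5, 95.8 and 104.6 CPM in 1× glucose and 72.8, 78.8 and 85 CPM in 2-DG, with no overlap and a log2 fold change of −0.36 (edgeR, SE 0.08, adjusted p = 0.0153). Without the 2-DG library of passage 13 or of passage 15 the adjusted p was 0.0596 or 0.0554 (edgeR), so that the call was lost. *Lef1*, itself a Wnt target, measured 147.2, 283.7 and 275.3 CPM in 1× glucose and 88.8, 245.6 and 193.8 CPM in 2-DG. The groups overlapped, since passage 13 was low in both, but *Lef1* was lower in each passage and was called with the block (−0.46, adjusted p = 0.00901, edgeR) though not without it (−0.42, adjusted p = 0.493, edgeR). *Ctnnb1*, which encodes β-catenin and was by far the most abundant of the nuclear effectors per kb (223 ± 13.3 CPM per kb in 1× glucose, SD, n = 3), was at means of 1158 and 1152 CPM. *Tcf7l1*, known as a repressor, and *Tcf7l2* had log2 fold changes of 0.10 and 0.04 and were not called.

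**Figure D3:**
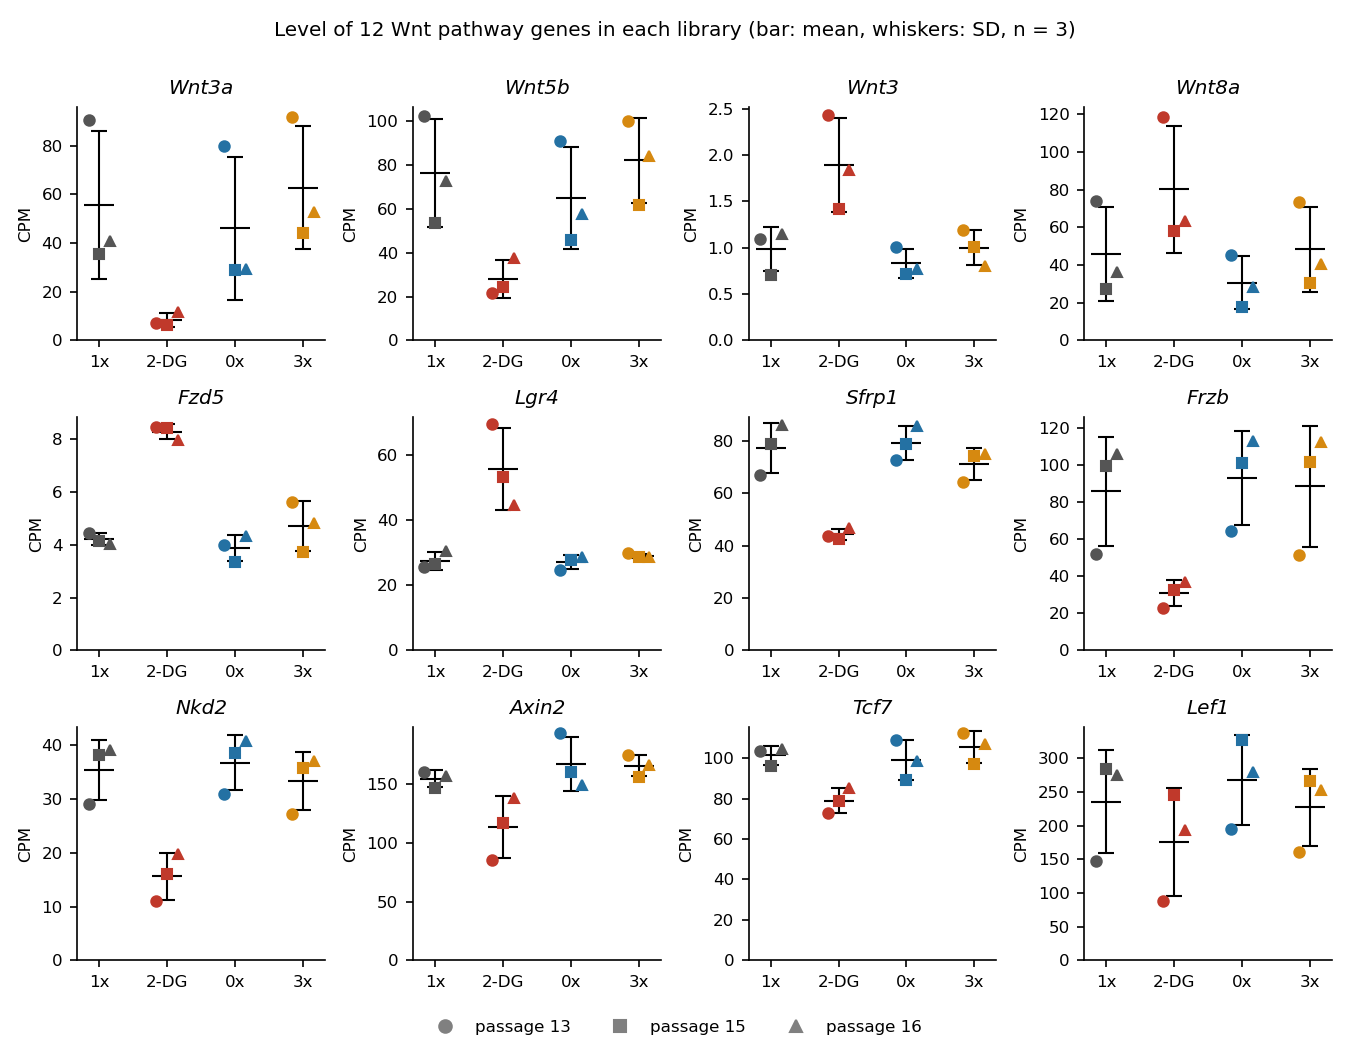
Level of 12 Wnt pathway genes in each library (y axis, CPM, from 0) by treatment (x axis), with bars at the mean and whiskers of 1 SD (n = 3). Symbols mark the ES cell passage. The 2-DG libraries of *Wnt3a* lie at 6.51 to 11.8 CPM and all others at or above 28.9 CPM, whereas those of *Lef1* overlap the other groups.

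The deposited counts are given per transcript, and the shares of a gene's transcripts were compared between groups. Of 42 transcripts of 17 members, 6 (14.3%) had shares that did not overlap between 2-DG and 1× glucose, against 11.8% of 16308 transcripts of all genes. The same held for 5 (11.9%) between 0× and 1× glucose, against 9.84% of all transcripts, and for 5 (11.9%) between 3× and 1× glucose, against 10%. These rates are near the background, and 4 of the 6 belong to *Lef1*, which was singled out after its values were seen. NM_001379059.1 and NM_001379060.1 together took 35.1%, 28.7% and 38.9% of the *Lef1* counts in 1× glucose and 66.0%, 75.5% and 73.5% in 2-DG. NM_010703.4 and NM_001276402.1 together took 59.9%, 68.2% and 58.4% in 1× glucose and 28.5%, 18.5% and 23.4% in 2-DG. The counts of that second pair were 4012, 7356 and 7444 in 1× glucose and 864, 1669 and 1701 in 2-DG. In 0× glucose the first pair took 13.7%, 21.7% and 23.8%, and in 3× glucose 46%, 40.6% and 32.1%. The split was estimated by StringTie from reads the transcripts share, and in other members such as *Wnt5a* and *Axin2* it varied widely between libraries of 1 group.

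Other genes of the pathway moved both ways in 2-DG, to be read against 9.12% of all genes that rose and 8.51% that fell. Of 34 core cytoplasmic and nuclear genes tested, 4 rose (*Apc2*, 0.81; *Tle1*, 0.39; *Btrc*, 0.31; *Ctbp1*, 0.13 on the log2 scale) and 4 fell, of which *Frat1*, a GSK3 inhibitor, fell most (−0.83). Of 18 other ligands and extracellular regulators tested, *Rspo4* (1.72) and *Tpbg* (0.19) rose and *Wnt10a* (−2.29) fell. Of 15 genes of planar polarity and alternative receptors tested, *Prickle1* (0.33) and *Ror2* (0.27) rose and *Ryk* (−0.32) fell. Of 24 posterior and mesodermal Wnt target genes, 4 fell and 1 rose (*Ccnd2*, 0.62). This list shares genes with the primitive streak and early mesoderm markers above, so the results of both lists are not separate observations. Those that fell were *Mixl1* (−3.89) and *Evx1* (−2.59), both primitive streak factors, *T* (−1.57), the mesoderm factor Brachyury, and the Notch ligand *Jag1* (−0.26). With the passage block 11 of the 24 were lower and 3 higher, against 20.2% and 21.1% of all genes.

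Neither glucose condition gave a call among the Wnt pathway genes. In 0× against 1× glucose 0 of 52 were called by edgeR, against 0.0118% of all genes, and 0 with the passage block, against 0.0177%. At an unadjusted p under 0.05 there were 0 of the 52 and 306 of all genes (1.8%), and DESeq2 called 0 of the 52. In 3× against 1× glucose 0 of 52 were called, against 0% of all genes with or without the block, with 0 of the 52 and 178 of all genes (1.05%) at an unadjusted p under 0.05, and DESeq2 called 0 of the 52. The log2 fold change lay within 0.5 of 0 for 49 of 52 genes in 0× (94.2%, against 94.7% of all genes) and for 51 of 52 in 3× (98.1%, against 95.8%). None of the 52 tested genes had libraries apart from those of 1× glucose in either condition, against 2.69% of all genes higher and 2.94% lower in 0×, and 2.09% higher and 2.38% lower in 3×. A missed threshold does not show equal levels. The other pathway and marker lists had no call in either condition.

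The genes that moved in 2-DG had the following levels without glucose and with 3× glucose, in passages 13, 15 and 16. *Wnt3a* measured 80.1, 28.9 and 29.5 CPM in 0× and 91.6, 44.2 and 52.7 CPM in 3×. *Wnt5b* measured 90.8, 45.9 and 57.8 CPM in 0× and 100.1, 61.6 and 84.2 CPM in 3×. Both ligands ranked by passage as in the controls, and each of these libraries lay above all 2-DG libraries, with a margin for *Wnt5b* of 45.9 CPM (0×, passage 15) over 37.8 CPM (2-DG, passage 16). *Wnt8a* measured 45.6, 17.9 and 28.3 CPM in 0× and 73.7, 30.6 and 40.7 CPM in 3×, and was therefore lower than its own control in each passage without glucose, though not called. *Frzb* measured 64.4, 101.1 and 113.4 CPM in 0× and 51.4, 102.0 and 112.4 CPM in 3×. *Sfrp1* measured 72.7, 78.8 and 85.8 CPM in 0× and 64.1, 74.4 and 75.1 CPM in 3×. These antagonists overlapped the 1× glucose libraries in both conditions. *Axin2* measured 193.3, 160.0 and 149.3 CPM in 0× and 174.6, 156.5 and 166.1 CPM in 3×. *Lef1* measured 195.5, 326.8 and 280.3 CPM in 0× and 161.1, 266.7 and 253.4 CPM in 3×. *Tcf7* measured 109.0, 89.4 and 98.7 CPM in 0× and 112.4, 97.1 and 107.1 CPM in 3×. The Wnt readouts and *Tcf7* thus overlapped the controls as well. *Nkd2* measured 31.0, 38.5 and 40.7 CPM in 0× and 27.1, 35.8 and 37.0 CPM in 3×. *Lgr4* measured 24.8, 27.9 and 28.9 CPM in 0× and 29.9, 28.7 and 28.9 CPM in 3×. *Fzd5* measured 3.98, 3.35 and 4.32 CPM in 0× and 5.60, 3.72 and 4.82 CPM in 3×. None of the 3 reached its 2-DG level in any glucose library, *Nkd2* being above it and *Lgr4* and *Fzd5* below. *Wnt3* measured 1.01, 0.717 and 0.771 CPM in 0× and 1.19, 1.01 and 0.807 CPM in 3×. *Wnt4* measured 2.18, 0.807 and 0.555 CPM in 0× and 1.94, 2.04 and 1.96 CPM in 3×. Both stayed below every 2-DG library. *Wnt5a* lay between 106.2 and 158.8 CPM in 0× and between 95.6 and 147.2 CPM in 3×, *Wnt6* between 5.08 and 15.8 CPM and between 5.27 and 13.8 CPM, and *Wnt2b*, *Wnt7b* and *Wnt11* at no more than 1.26 CPM in either.

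**Figure D4:**
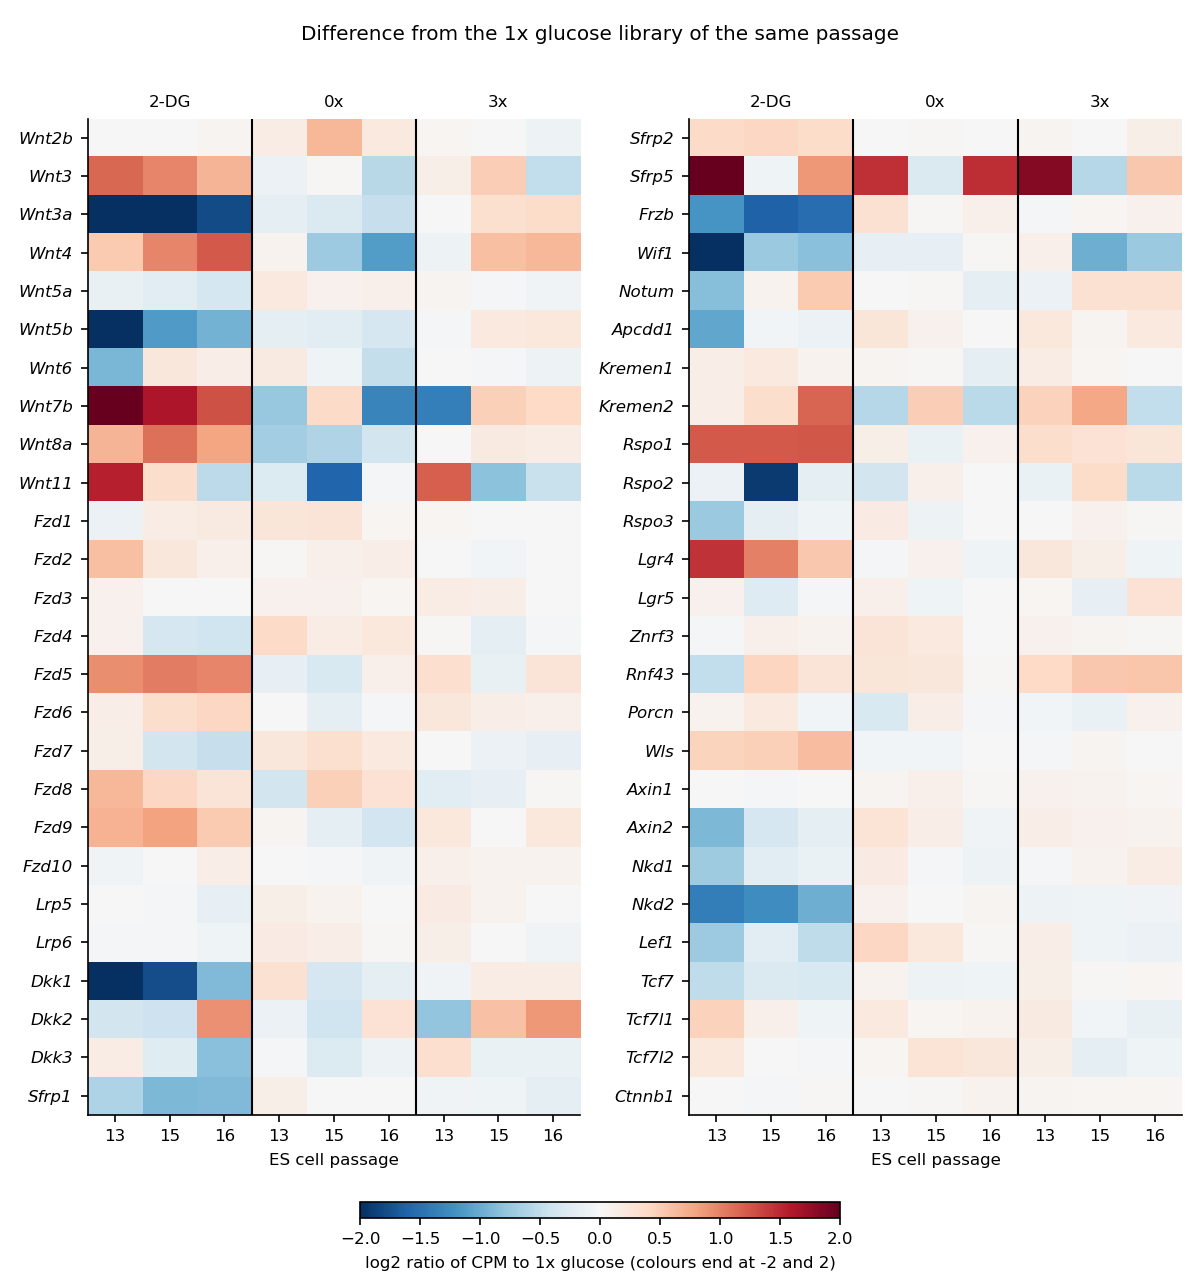
Log2 ratio of CPM to the 1× glucose library of the same passage (colour, ending at −2 and 2) for the 52 tested genes (rows) in the 2-DG, 0× and 3× glucose libraries of passages 13, 15 and 16 (columns). In 2-DG 17 genes are lower and 16 higher in all 3 passages, in 0× glucose 6 and 17, and in 3× glucose 3 and 16. These counts of direction take no account of size, and all ratios of a passage share its 1× glucose library. The share over all genes is not given, so no conclusion is drawn from the counts. The most intense colours of *Wnt3a*, *Frzb*, *Nkd2*, *Lgr4* and *Rspo1* stand in the 2-DG columns.

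Set against 0× glucose, 2-DG gave 7 lower calls (13.5%, against 9.04% of all genes) and 4 higher calls (7.69%, against 9.86%). This comparison shares its 2-DG libraries with that against 1× glucose. The 9 genes named above were called in the same directions, joined by *Axin2* (−0.56, adjusted p = 0.0249, edgeR) and *Wnt4* (1.27, adjusted p = 0.04999, edgeR). The call of *Wnt4* held in 3 of 12 alternative settings, with an adjusted p of up to 0.162 in the others, and that of *Axin2* in 6 of 12. *Wnt3a* was at −2.45, *Wnt5b* at −1.21 and *Frzb* at −1.59, and *Lgr4* at 1.04, *Fzd5* at 1.09 and *Wnt3* at 1.18. With the passage block 15 were lower (28.8%, against 21.5%) and 12 higher (23.1%, against 21.5%). The receptors *Fzd4* (−0.46), *Fzd7* (−0.49), *Lrp5* (−0.13) and *Lrp6* (−0.15) were among those lower only with the block here and called in neither fit against 1× glucose. *Wnt8a* was higher by 1.41 with the block (adjusted p = 1.96e-06, edgeR), and its 2-DG libraries lay above all 0× glucose libraries.

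Across the glucose doses, 3× against 0× glucose gave 0 calls among the 52 genes, against 0.0118% of all genes, with 0 of the 52 and 734 of all genes (4.33%) at an unadjusted p under 0.05. DESeq2 called 0 of the 52 and 24 of all 26382 genes with a count. With the passage block 1 gene was called (1.92%, against 0.802% of all genes). It was *Wnt8a*, higher in 3× glucose by 0.66 (adjusted p = 0.0159, edgeR), and higher in each passage, by 0.69, 0.77 and 0.52.

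More of the Wnt genes were called for the passage of the ES cells than for any treatment. In the fit with the passage block, 2-DG gave 23 calls against 1× glucose and 27 against 0× glucose, with the shares of all genes given above. The passage test covers both passage terms over all 12 libraries and a treatment contrast sets 3 libraries against 3, so the counts rest on unlike tests. With the group in the fit, 36 of 52 (69.2%) differed between the 3 passages, against 46.2% of all genes. Passage 13 was higher than the mean of passages 15 and 16 for 18 genes (34.6%, against 23.3% of all genes) and lower for 16 (30.8%, against 22.8%), while passage 16 differed from passage 15 for 3 (5.77%, against 4.2%). Each passage is seen in 4 libraries, each of a different treatment, and the passage number, the day of the experiment and the culture cannot be told apart. The SDs over n = 4 below therefore include the differences between treatments. The p-values for passage measure the spread between libraries, not between separate cultures of a passage. *Notum* was highest in passage 13, at a mean of 66.0 ± 16.2 CPM (SD, n = 4), against 20.1 ± 2.06 CPM in passage 15 and 22.2 ± 4.80 CPM in passage 16, a log2 difference of 1.64 (adjusted p = 2.03e-05, edgeR). *Fzd9* (1.45), *Rspo1* (1.11), *Wnt8a* (1.07), *Wnt3a* (0.97) and *Wnt6* (0.94) were also higher in passage 13. *Tcf7l1* (−1.05), *Lef1* (−0.88), *Frzb* (−0.85), *Fzd4* (−0.70), *Fzd7* (−0.63) and *Wnt5a* (−0.56) were lower, and so were the scarce *Rspo2* (−1.72) and *Wif1* (−1.64). *Lef1* was at 148.1 ± 44.5 CPM in passage 13 and 280.7 ± 34.5 and 250.7 ± 39.7 CPM in passages 15 and 16 (SD, n = 4). *Axin2* was not called for passage (adjusted p = 0.818, edgeR), with a log2 difference of 0.00 between passage 13 and the others.

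Set beside 2-DG against 1× glucose in the same fit, 14 genes (26.9%, against 22.2% of all genes) were called for both passage 13 and 2-DG, and 20 (38.5%, against 23.9%) for passage 13 only. Another 9 (17.3%, against 19.1%) were called for 2-DG only and 9 (17.3%, against 34.8%) for neither. The directions of both differences could be alike, as for *Rspo1* and *Wnt8a*, or opposed, as for *Wnt3a* and *Wnt5b*, which were higher in passage 13 and lower in 2-DG.

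**Figure D5:**
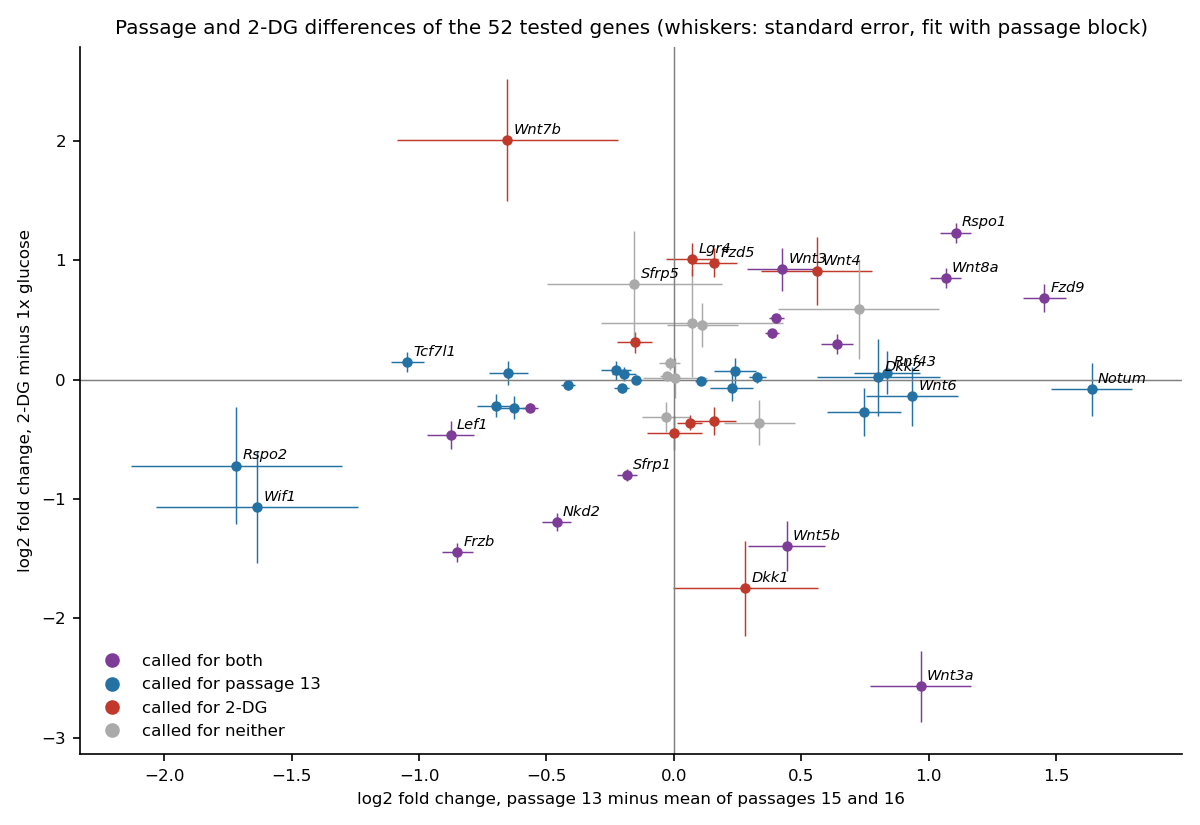
Log2 difference of passage 13 from the mean of passages 15 and 16 (x axis) and of 2-DG from 1× glucose (y axis) for the 52 tested genes in the fit with the passage block, with standard errors as whiskers. Colours give the calls. *Notum* lies far to the right near 0 on the y axis, and *Wnt3a* at 0.97 and −2.57.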

How the data were processed

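PolyA RNA of 12 gastruloid libraries was measured. The authors deposited estimated counts of 120312 RefSeq transcripts per library, made on mm10 per the labels (Trim Galore, HISAT2, SAMtools, Picard, StringTie), with versions and settings not given in the sources used here. They also deposited 3 tables of fold changes and adjusted p-values of their own DESeq2 comparisons, which were not used. The estimated counts were whole numbers and were summed per gene symbol through the RefSeq table of GRCm38.p6, which named all transcripts. Totals of 31902471 to 45956080 counts limit the precision of scarce genes.

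Counts were fitted in R 4.3.3 with edgeR 4.0.16 (TMM, filterByExpr, quasi-likelihood test, 4 groups in 1 fit without a block, two-sided, Benjamini-Hochberg adjustment over 16966 genes, threshold 0.05). The passage was tested in the fit of group and passage. Gene positions and exon lengths (unions of exons) are from GENCODE and promoter windows from RefSeq, whose starts can differ. Transcript shares were compared in genes with at least 100 counts, for transcripts with shares between 10% and 90%. Alternatives were the passage block, DESeq2 1.42.0, median-of-ratios factors, no filter, the most abundant transcript, only the groups compared, and each library left out. The block fits with a library left out and the transcript shares were added after seeing the data. On data simulated for 2-DG against 1× glucose, 86.5% of 200 genes changed by 1 on the log2 scale were recovered among 16670 genes, with 6.99% false calls. The changed genes were drawn from those with a mean of at least 100 counts, with the same dispersion for every gene and no passage difference. The recovery therefore does not describe scarcer genes such as *Wnt3*, *Wnt4* and *Wnt7b*, or genes that differ between passages. Figures were drawn with matplotlib 3.10.9.

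Labels read as passages 13, 15 and 16 of the ES cells pair the libraries of the groups. Deviations from group means correlated at 0.0963 to 0.623 in 18 pairs of the same passage and at −0.44 to 0.191 in 36 pairs of different passage and group. No pair of libraries had more than 9.67% identical values. The labels do not state separate cultures within a passage, so p-values measure the spread between these libraries.

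The genes and lists were chosen with earlier results of these data known. Per-library values are given for genes called in any comparison of treatments, for *Wnt3a*, *Axin2*, *Lef1* and *Frzb*, and for ligands above the filter. Genes called only with the block are given by means, and other lists by counts and at most 5 called genes per direction. Protein sequences were not used here.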

Additional observations from a re-analysis of the deposited data

How the results depend on the processing

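Of 432 single-gene results under an alternative setting, 362 kept their direction and side of the threshold, 48 lost the call, 16 gained it and 6 changed sign. With the replicate block, in which the labels' passages pair the libraries, the calls in 2-DG against 1× glucose went from 6 to 11 lower and from 3 to 12 higher, in 2-DG against 0× glucose from 7 to 15 lower and from 4 to 12 higher, and in 3× against 0× glucose from 0 to 1. The block ended no call made without it. With the most abundant transcript alone, calls were 3 lower and 1 higher against 1× glucose, 4 lower against 0× glucose and 17 of 36 for passage. DESeq2 gave 5 higher against 1× glucose. The cause of these shifts was not tested. With 1 library left out, lower calls against 1× glucose ranged from 3 (without 2-DG passage 15) to 8 and higher calls from 2 to 3. Against 0× glucose they ranged from 4 (without 2-DG passage 13 or 15, or 0× glucose passage 13) to 8 lower and from 3 to 7 higher (7 without 0× glucose passage 13). The 3 comparisons among glucose doses gave 0 in every such fit. Block fits with 1 library left out gave 9 to 12 lower and 9 to 12 higher against 1× glucose, and 13 to 16 lower and 11 to 13 higher against 0× glucose, and the passage test 27 to 39. Of the members called with the block, 17 of 23 against 1× glucose and 24 of 27 against 0× glucose were called in every such fit. The sign changed for *Wnt2b* against 1× glucose (−0.001732 without the filter, and −0.1107 to 0.1346 with 1 library left out, negative without 1× glucose passage 15, at −0.1025, or 2-DG passage 16), for *Wnt6* against 1× glucose (−0.5591 to 0.142, positive without 1× glucose passage 13) and against 0× glucose (−0.5121 to 0.4608, positive without 0× glucose passage 13), and for *Wnt5a* against 0× glucose (0.07091 with the most abundant transcript). None of these 3 genes was called in the fit without the block. Depth limits *Wnt1* and *Wnt10b*, with at most 5 counts in a library, and genes under 1 CPM.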
